A study of Homo sapiens with 6 samples.

Results

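The enzymes that build purine and pyrimidine nucleotides from small precursors were followed through 10 named genes, PPAT, GART, PAICS, ADSL, ATIC, IMPDH1, IMPDH2, CAD, UMPS and CTPS1. They were taken by symbol from 17687 genes measured on whole-transcript arrays, and all 10 were found, each with 1 probe set. The arrays came from SH-SY5Y, an established line from a human neuroblastoma, a tumour of the sympathetic lineage, which retinoic acid drives towards a neuronal form. All cells were differentiated with atRA (all-trans retinoic acid) over 96 h, and the groups compared are 3 samples labelled 15EN and 3 vehicle controls (VC). The treatment text, the same for every sample, gives a bioactive compound at 15 µM, eurycomanone, a plant quassinoid, stands in the title of the series, and the labels do not expand 15EN or name the vehicle. Replicates 1, 2 and 3 of each group carry passages 33, 34 and 35 in their titles, whereas every description names passage 33. The samples come from a single cell line, and nothing beyond the passage says that they were separate cultures, so the p-values cover no more than array-to-array spread, which may be technical.

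De novo synthesis assembles the purine ring step by step on ribose phosphate and ends in IMP, from which AMP and GMP are made. The pyrimidine ring is built first and then joined to ribose phosphate to give UMP, which is later converted to CTP. In proliferating cells, including tumour lines, these routes supply RNA and DNA synthesis, and factors of the MYC family are known to act on many of their genes.

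Within the IMP route and the GMP branch, 2 of the 10 genes rose in the 15EN arrays, ATIC and IMPDH2, and within the pyrimidine route UMPS rose. The 3 increases were 2.37-fold for ATIC, 2.77-fold for IMPDH2 and 2.39-fold for UMPS. None of the 10 passed in the lower direction, and 7 did not pass at all. The test was limma across all genes with a threshold of adjusted p 0.05. Over all genes 21.4% passed it, 12.3% higher and 9.09% lower, so 3 of 10 higher and 0 of 10 lower are to be read against those shares. By limma, 7 of the 10 had an unadjusted p under 0.05, the 3 called genes with PPAT, GART and ADSL upward and PAICS downward, against 32.2% of all genes. The median log2 difference (15EN minus VC) was 0.54 over the 10 genes and 0.01 over all genes. Arrays of the 2 groups did not overlap in 8 of the 10 genes, against 36.3% of all genes. These shares cover many genes of low signal. In both groups 46.9% of all genes, and 0 of the 10, had means under the negative control level given below. Among the 11791 genes kept when the dimmest were left out, 2301 passed as higher and 1682 as lower. Of the 10, ATIC, IMPDH2 and UMPS passed there. The shares of all genes are thus lower than those of brighter genes.

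The values are log2 signals per probe set, and a gene is called dim where its group mean lay under the negative control level given next. Medians over genes were 7.60 to 7.71 per array. Each of the 10 genes lay above the level under which 90% of the 612 negative control probe sets fell (7.41 to 7.99) on all 6 arrays. Among the 15EN arrays replicate 3 stood apart. On the first principal component (64.2% of the variance) it lay at -25.2, against -61.9 and -61.1 for the other 15EN arrays and 48.4 to 50.4 for VC. For some of the results that moved when this array was left out, both values are given.

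Sequence near the start sites is shown for a pair of neighbouring genes whose estimates had opposite signs and for the called genes with a window, ATIC and UMPS. PPAT and PAICS are transcribed away from each other on chromosome 4, and their log2 differences were 0.54 and -0.63, neither past the threshold. In RefSeq (GRCh38.p14) a PPAT start lies at 56435615 on the minus strand and a PAICS start at 56435752 on the plus strand. The gap between them is 136 bases long with a GC content of 75%, and is printed on the plus strand together with the nearest E-box. An E-box is the sequence CACGTG, which reads the same on both strands and is bound by MYC family factors, and capitals mark motifs. The E-box begins at position -182 relative to the PPAT start and at position 41 relative to that PAICS start, and it is the same site for both genes. ATIC and UMPS are shown over the 150 bases before their starts. Capitals mark an E-box in ATIC, and in UMPS a CRE, the element TGACGTCA of CREB and ATF factors, which was searched after the UMPS window had been read.
PPAT-PAICS gap, chr4:56435616-56435751: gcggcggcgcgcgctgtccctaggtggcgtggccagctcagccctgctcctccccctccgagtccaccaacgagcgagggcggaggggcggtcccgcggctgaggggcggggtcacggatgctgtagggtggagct
PPAT-PAICS E-box, chr4:56435782-56435807: gtatttgctgCACGTGgaaatctccg
ATIC, chr2:215311909-215312058, plus strand: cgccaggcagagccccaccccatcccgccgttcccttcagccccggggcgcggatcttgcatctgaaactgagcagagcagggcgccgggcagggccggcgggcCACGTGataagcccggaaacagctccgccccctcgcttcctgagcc
UMPS, chr3:124730302-124730451, plus strand: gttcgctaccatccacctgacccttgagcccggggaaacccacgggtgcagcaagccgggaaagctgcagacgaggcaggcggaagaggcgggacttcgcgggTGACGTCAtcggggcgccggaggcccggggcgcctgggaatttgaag

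Promoter windows of 300 bases around a start were matched for 8 of the 10 genes, 13 windows in all, and not for IMPDH2 and ADSL. CACGTG was in 3 of the 13 windows, those of PPAT, PAICS and ATIC, and in 7.26% of all 35116 windows. The PPAT and PAICS matches are the same site, and some of the 13 windows overlap, so they are not separate counts. ATIC held it at positions -46 and 30, and DHODH, an enzyme outside the 10, at -159. Both strands were searched for 3 further motifs. TGACGTCA was in the UMPS window alone (1.85% of all windows). It was searched after that window had been read, so its presence there was known beforehand. GCATGCGC, the core of the NRF1 site, was in a window of CTPS1 alone (3.05%). TGATGNAA, the C/EBP-ATF element of ATF4, was in 0 of the 13 (3.62%). These matches describe the letters in the windows and were not set against the expression values.

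PPAT encodes the amidotransferase that commits PRPP, the activated ribose phosphate, to purine synthesis. In order of replicate number, used throughout, its log2 signals were 11.67, 11.47 and 12.09 in 15EN against 11.21, 11.07 and 11.34 in VC. All 15EN arrays lay above all VC arrays, by a narrow margin. The difference of 0.54 ± 0.23 (SE) did not pass (limma adjusted p = 0.133).

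PAICS, on the other side of the shared gap, encodes the enzyme for the carboxylation step and the step after it. Its signals were 13.98, 13.88 and 13.73 in 15EN and 14.76, 14.67 and 14.06 in VC. Here the 15EN arrays lay below the VC arrays, with VC replicate 3 nearest to them. The difference of -0.63 ± 0.24 missed the threshold (limma adjusted p = 0.0906). It passed without VC replicate 3 (-0.85, adjusted p = 0.0483), after quantile normalization (-0.72, 0.0447) and after removal of a brightness trend (-0.73, 0.0429). RefSeq also lists a PAICS start at 56410507, inside the PPAT gene on the other strand, so the annotated spans of these genes overlap.

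Within each array, the PPAT signal minus the PAICS signal was set against its VC mean. This value was 0.99, 0.87 and 1.65 in the 15EN arrays against -0.26, -0.31 and 0.57 in VC. It was larger in 15EN than in VC in all 3 same-numbered comparisons, by 1.24, 1.18 and 1.09, with a mean difference of changes of 1.17. The two-sided exact permutation test gave p = 0.1, the smallest that this test can give with 3 against 3 arrays, so it cannot pass 0.05 here. The pair was chosen after its values were seen. All 15EN arrays lay above VC for PPAT and below VC for PAICS. The rise in every comparison and this p therefore followed from the values already given and add no evidence. A constant added to an array cancels in this value.

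GART encodes a protein with several activities of the early ring steps. It was measured at 12.69, 12.73 and 12.68 in 15EN and at 12.43, 12.02 and 12.04 in VC. The 15EN arrays were close together and above VC. The difference of 0.54 ± 0.21 did not pass (limma adjusted p = 0.0985).

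ADSL, adenylosuccinate lyase, acts both in the IMP route and in the branch to AMP. Signals of 10.03, 9.75 and 9.72 were found in 15EN and of 9.71, 9.09 and 8.95 in VC. The groups touched, with VC replicate 1 just below the lowest 15EN array. ADSL differed by 0.58 ± 0.25 without passing (limma adjusted p = 0.132), and passed with array weights (0.67, adjusted p = 0.0489).

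ATIC carries out the closing steps to IMP. In 15EN its signals were 11.33, 11.11 and 10.04, and in VC 9.64, 9.39 and 9.72. All 15EN arrays were higher than VC, but replicate 3 was much nearer to VC than the other 15EN arrays were. ATIC rose by 1.24 ± 0.32 (95% interval 0.53 to 1.95, limma adjusted p = 0.0194). Same-numbered differences were 1.68, 1.72 and 0.33. Without 15EN replicate 3 the difference was 1.64 (adjusted p = 0.000247). Without any other single array the call was lost (adjusted p = 0.0734 and 0.075 without 15EN replicates 1 and 2, and 0.0595, 0.0863 and 0.0557 without VC replicates 1, 2 and 3). The direction was the same in all 15 alternatives.

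**Figure D1:**
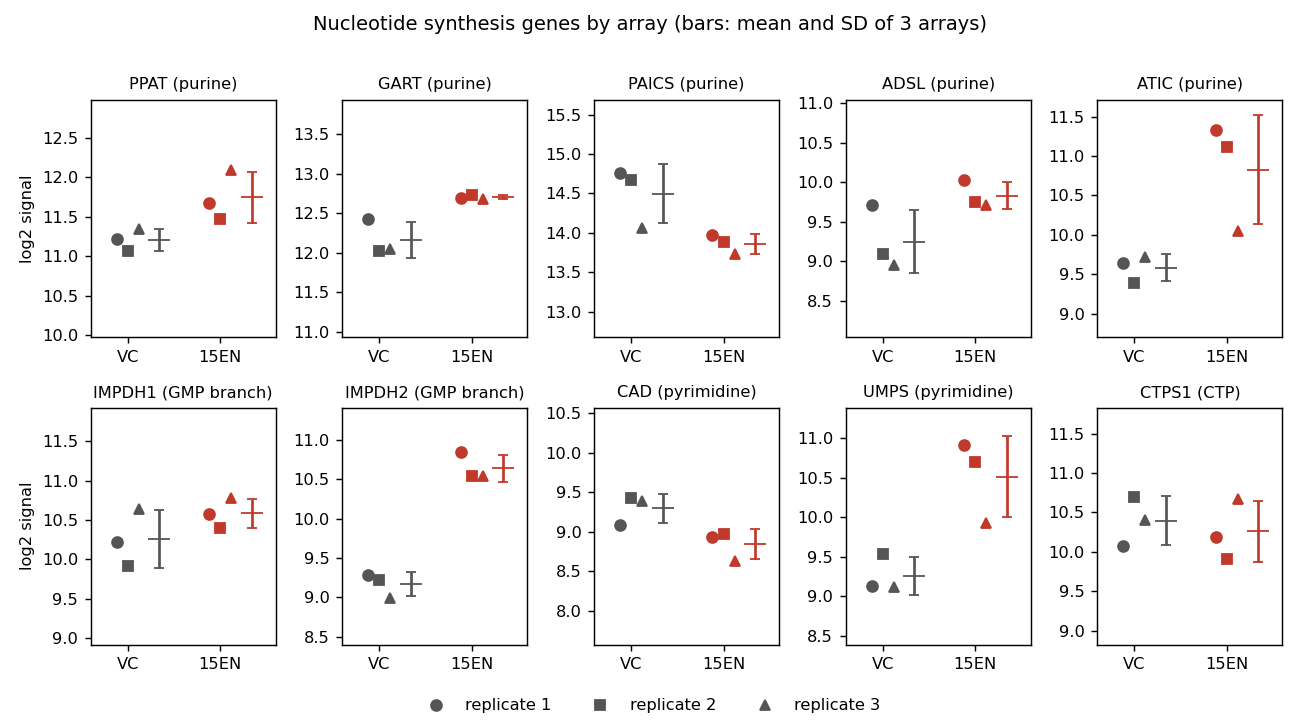
Log2 signal (vertical axis) of each of the 10 genes in the 3 VC and 3 15EN arrays, with the mean and SD of each group beside the points, every panel spanning the same range. IMPDH2 shows 3 close 15EN arrays well above VC, whereas ATIC and UMPS show 15EN replicate 3 (triangle) nearer to VC, at 10.04 and 9.93.

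IMP dehydrogenase, the rate-limiting enzyme of GMP synthesis, is encoded by the paralogues IMPDH1 and IMPDH2. IMPDH2, the form known to be induced in proliferating cells, had signals of 10.84, 10.54 and 10.54 in 15EN and 9.28, 9.22 and 8.9985 in VC. Both groups were tight and the gap between them was far wider than the spread within either. IMPDH2 rose by 1.47 ± 0.21 (95% interval 1.01 to 1.94, limma adjusted p = 0.0011), the smallest p among the 10 genes. It passed in all 15 alternatives, with differences of 1.32 to 2.34 and adjusted p of 2.45e-05 to 0.00932.

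IMPDH1, known as the form made at a low and steady level in many tissues, was at 10.57, 10.40 and 10.77 in 15EN and 10.22, 9.92 and 10.64 in VC. The groups overlapped. The difference was 0.32 ± 0.24 (95% interval -0.22 to 0.86, limma adjusted p = 0.419). Within arrays, IMPDH2 minus IMPDH1 relative to its VC mean was 1.36, 1.23 and 0.86 in 15EN and 0.15, 0.40 and -0.55 in VC. The value was higher in 15EN by 1.20, 0.83 and 1.41 in same-numbered arrays, 1.15 on average (two-sided exact permutation p = 0.1, the smallest possible). This pair, too, was chosen after its values were seen.

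By the rule for likeness (smallest root mean square distance over the 6 arrays between profiles, each minus its own mean), the genes closest to IMPDH2 were BRIX1, NRBF2 and PPME1. BRIX1, a ribosome biogenesis factor, lay at a distance of 0.059 and differed by 1.49 ± 0.21 (limma adjusted p = 0.00116). The likeness of these values to those of IMPDH2 follows from the rule and adds no evidence. NRBF2, an autophagy-related protein, lay at 0.073 and PPME1, a protein phosphatase methylesterase, at 0.086. NRBF2 was dim in VC.

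In the pyrimidine route, CAD encodes the large protein for the opening steps. Its signals were 8.93, 8.97 and 8.62 in 15EN against 9.09, 9.42 and 9.39 in VC. The 15EN arrays lay just below VC. CAD differed by -0.46 ± 0.21 without passing (95% interval -0.93 to 0.02, limma adjusted p = 0.174), and it passed in 0 of the 15 alternatives.

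UMPS carries out the closing steps to UMP. It was at 10.91, 10.71 and 9.93 in 15EN, and at 9.13, 9.53 and 9.11 in VC. All 15EN arrays were above VC, with replicate 3 the lowest. UMPS rose by 1.26 ± 0.28 (95% interval 0.63 to 1.88, limma adjusted p = 0.0101). Without 15EN replicate 3 the difference was 1.55 (adjusted p = 0.000448), and it passed in all 15 alternatives, closest to the threshold without VC replicate 3 (adjusted p = 0.0496).

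CTPS1, a CTP synthase, was at 10.19, 9.92 and 10.67 in 15EN and 10.08, 10.70 and 10.40 in VC. The groups overlapped fully. The difference was -0.13 ± 0.26 (limma adjusted p = 0.788), and its 95% interval of -0.71 to 0.45 leaves room for a moderate change in either direction. Its same-numbered differences did not share a sign, at 0.11, -0.78 and 0.27.

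The deposited values set the zero point of all these differences. The 4 hybridization controls were lower in the 15EN arrays by 0.87 on the log2 scale. Scaling to them therefore added 0.87 to each gene's difference and put the median gene at 0.88. Against 0 on that scale 8 of the 10 genes passed as higher, all except PAICS (0.23) and CAD (0.41), whose estimates turned positive, as did that of CTPS1 (0.73). Relative to the median gene the order is as before, with PAICS, CAD and CTPS1 below it. Among all genes that passed, the share that was higher went from 57.5% to 96.5%.

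Of 10 other enzymes listed for the same routes 9 were measured, and ADSS2 was not analysed here. DHODH rose, PRPS2, PRPSAP1 and CTPS2 fell, and 5 did not pass, with a list median of 0.07. These 9 genes are described beside the same shares of all genes, 12.3% higher and 9.09% lower. PRPS2 makes PRPP, the substrate of PPAT and UMPS. Its signals were 9.94, 9.32 and 10.12 in 15EN and 10.81, 10.79 and 10.77 in VC, a difference of -0.996 ± 0.25 (limma adjusted p = 0.0159). Its paralogue PRPS1 differed by 0.33 ± 0.32 without passing (adjusted p = 0.549), and by 0.036 without 15EN replicate 3. Within arrays PRPS1 minus PRPS2 moved up by 1.25, 1.71 and 1.00 in same-numbered arrays (mean 1.32, two-sided exact permutation p = 0.1).

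PRPSAP1, a regulatory partner of PRPP synthetase, fell from 12.04, 12.46 and 12.43 in VC to 11.43, 11.54 and 11.50 in 15EN, by 0.82 ± 0.21 on the log2 scale (limma adjusted p = 0.0196). Its relative PRPSAP2 spread widely in 15EN, at 11.91, 11.19 and 12.63, and differed by -0.17 ± 0.34 (adjusted p = 0.795), or by -0.53 without 15EN replicate 3 (0.158). CTPS2, the paralogue of CTPS1, went from 11.37, 11.34 and 11.23 in VC to 10.45, 9.98 and 10.73 in 15EN. That is a difference of -0.93 ± 0.24 (adjusted p = 0.0188). CTPS1 minus CTPS2 moved up by 1.04, 0.58 and 0.77 in same-numbered arrays (mean 0.80, two-sided exact permutation p = 0.1). Adjusted over the 4 gene pairs compared, chosen after their values were seen, each of these exact p stays at 0.1. That follows from equal p at the smallest value the test can give. The adjustment does not account for the choice of pairs.

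DHODH, the mitochondrial enzyme between the CAD and UMPS steps, was at 9.62, 9.65 and 10.10 in 15EN and 8.96, 8.96 and 9.10 in VC. It rose by 0.78 ± 0.22 (limma adjusted p = 0.0271). The pyrimidine route thus held a rise in DHODH and UMPS beside the CAD values given above. PFAS, which acts between steps carried out by GART, differed by 0.23 ± 0.20 (adjusted p = 0.494), GMPS, the last enzyme of GMP synthesis, by 0.12 ± 0.23 (0.785), and ADSS1, dim in both groups, by 0.07 ± 0.21 (0.87). Calls of these neighbours were less stable than those of IMPDH2 and UMPS, and about as stable as that of ATIC. PRPS2, CTPS2 and DHODH passed in 10 of 15 alternatives and PRPSAP1 in 11, against 10 for ATIC. PRPS2 and CTPS2 did not pass without 15EN replicate 2 or any single VC array (adjusted p = 0.0525 to 0.0735), PRPSAP1 without 15EN replicate 1 or VC replicate 2 or 3 (0.0629 to 0.0917), and DHODH without any single VC array (0.0701 to 0.1) or after quantile normalization (0.0536) or removal of a brightness trend (0.0683). PRPS2 (-0.13), CTPS2 (-0.06) and PRPSAP1 (0.050) also did not pass after scaling to the hybridization controls.

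**Figure D2:**
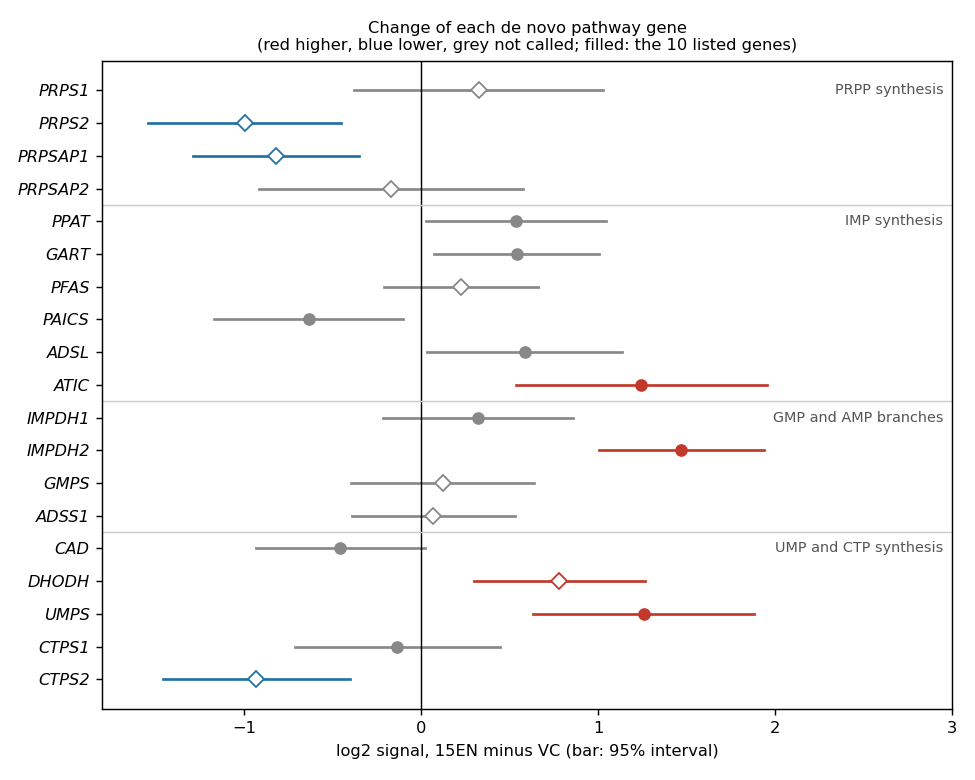
Log2 signal difference, 15EN minus VC (horizontal axis), with its 95% interval for each measured gene of the de novo routes, in pathway order from PRPP synthesis to CTP. ATIC, IMPDH2, UMPS and DHODH (red) passed to the right and PRPS2, PRPSAP1 and CTPS2 (blue) to the left, while PPAT, GART, ADSL and PAICS (grey) have intervals clear of 0 without passing after adjustment.

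**Figure D3:**
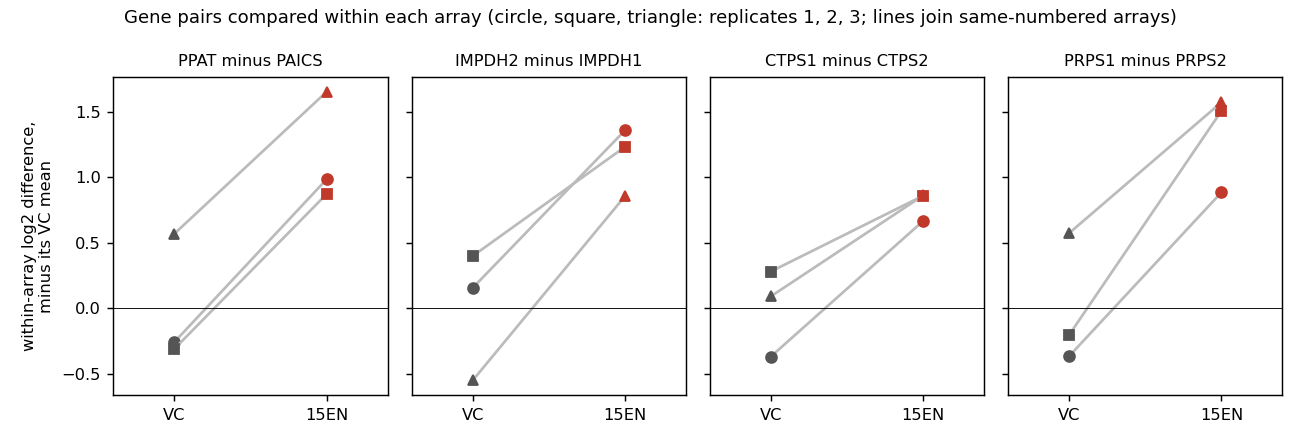
Within-array log2 difference of 4 gene pairs (vertical axis, relative to the VC mean) in VC and 15EN, with lines joining same-numbered arrays. Every line rises, by 1.17 on average for PPAT minus PAICS and by 1.15 for IMPDH2 minus IMPDH1. The pairs were chosen after their values were seen. Each is written with the gene of the higher difference first, so a mean rise follows from that order.

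Genes that feed from or into these routes moved in both directions. Over the 8 lists of related metabolic genes together (the 9 enzymes above included), 12 of 87 measured genes were higher and 14 lower, with a median of -0.03. That is 13.8% and 16.1%, against 12.3% and 9.09% of all genes. The counts of each list below are to be read against the same shares of all genes. Without 15EN replicate 2 the lower count was 8, and without VC replicates 1, 2 and 3 it was 7, 6 and 6.

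Deoxynucleotide supply had the highest share of calls among these lists, with 2 of 8 higher and 3 lower. Ribonucleotide reductase makes deoxynucleotides from the ribonucleotides that the 10 genes help to build, and its subunits split. RRM2B, a small subunit known as a p53 target, was at 13.65, 13.30 and 13.53 in 15EN and 10.64, 11.75 and 11.70 in VC. It rose by 2.13 ± 0.30 (limma adjusted p = 0.00112). RRM2, the small subunit of S phase, was at 9.91, 8.95 and 10.15 in 15EN against 11.57, 11.49 and 11.46 in VC. RRM2 fell by 1.84 ± 0.30 on the log2 scale (adjusted p = 0.00217), and the large subunit RRM1 by 1.13 ± 0.25 (0.00958). DCTD, a deaminase on the way to thymidylate, rose by 0.89 ± 0.19 (0.00889). Thymidylate synthase, TYMS, differed by 0.26 ± 0.24 (0.532).

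Of 10 measured salvage genes, which reuse bases and nucleosides, PNP (1.42 ± 0.23, limma adjusted p = 0.00208) and UCK1 (0.65 ± 0.20, 0.0442) rose and DCK fell (-0.85 ± 0.25, 0.0325). The purine salvage enzyme HPRT1, dim in VC, differed by -0.10 ± 0.24 (0.831). Among 21 breakdown genes 2 were higher and 2 lower. The nucleotidase NT5C rose (1.86 ± 0.36, 0.00485), and differed by 2.23 without 15EN replicate 3. The uridine phosphorylase UPP1 rose as well (1.41 ± 0.20, 0.000974), from a dim VC level. NT5C3B (-1.23 ± 0.25, 0.00607) and NT5C3A (-0.64 ± 0.20, 0.0488) fell. The calls of UCK1, DCK and NT5C3A were lost in 10, 5 and 8 of 15 alternatives.

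Nucleotide kinases had 2 of 10 higher and 1 lower. AK4 (1.24 ± 0.21, limma adjusted p = 0.0024) and NME6 (1.80 ± 0.32, 0.00327) rose from dim VC levels, and NME4, a mitochondrial nucleoside diphosphate kinase, fell (-1.09 ± 0.25, 0.011). Without 15EN replicate 3 NME6 differed by 2.13. Folate enzymes supply the formyl groups that GART and ATIC add to the purine ring. Of 15 measured, the mitochondrial enzyme MTHFD1L (1.17 ± 0.24, 0.00742) and the mitochondrial folate carrier SLC25A32 (1.09 ± 0.26, 0.0124) rose. GGH, dim in both groups (-1.12 ± 0.25, 0.00972), and ALDH1L2, dim in 15EN (-0.73 ± 0.23, 0.0443) fell. The calls of ALDH1L2, GGH, SLC25A32 and NME4 were lost in 7, 2, 2 and 3 of 15 alternatives. MTHFD2 and SHMT2 differed by 0.17 ± 0.22 (0.66) and 0.15 ± 0.23 (0.732). Of 6 ribose phosphate genes TKT alone passed (0.72 ± 0.23, 0.0441), a call lost in 7 of 15 alternatives. Among 8 nucleoside transporters SLC29A4 (-2.21 ± 0.40, 0.00361) and SLC29A3 (-1.35 ± 0.23, 0.00289) fell and 0 rose. SLC29A4 differed by -1.70 without 15EN replicate 3.

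Regulators linked to these enzymes were listed as well, and 2 of 9 measured genes rose and 0 fell. Over all genes 12.3% were higher and 9.09% lower. ATF4, a transcription factor of the stress response that acts on amino acid and folate genes, was at 12.53, 13.13 and 12.70 in 15EN and 10.87, 10.38 and 10.33 in VC. It rose by 2.27 ± 0.25 (limma adjusted p = 0.000325). MXD1, an antagonist of MYC, rose by 1.75 ± 0.46 (0.0213) with 15EN signals of 11.57, 11.96 and 9.85. Without 15EN replicate 3 its difference was 2.38, and without any other single array its call was lost. MYC itself was at 8.39, 9.80 and 8.33 in 15EN and 8.03, 8.06 and 8.30 in VC. Its difference was 0.70 ± 0.36 (0.213), with 15EN replicate 2 far above the other arrays. MYCN, dim in 15EN and in VC alike, differed by 0.01 ± 0.23 (0.981).

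**Figure D4:**
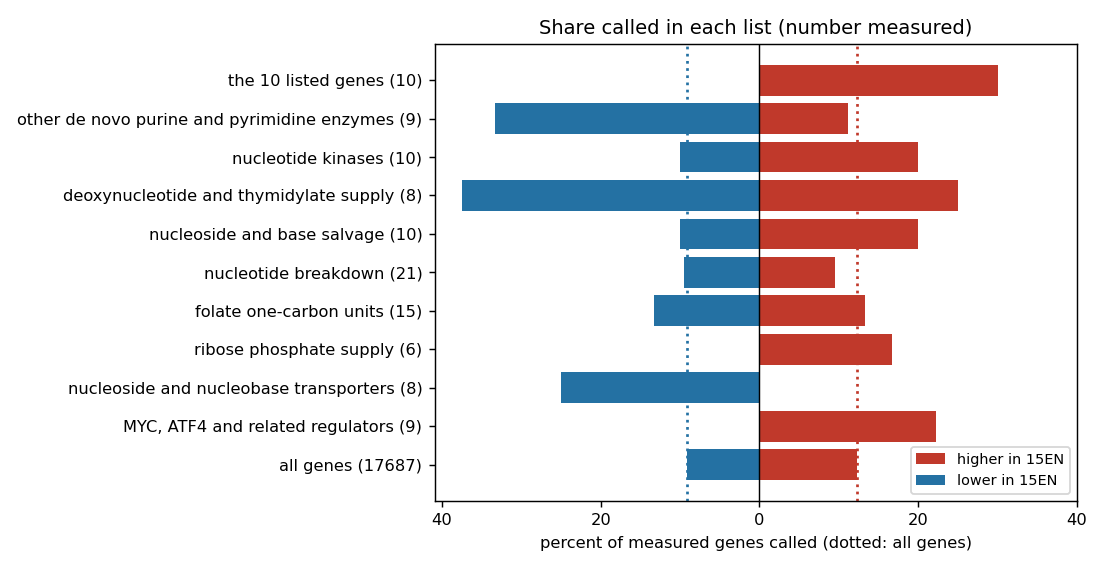
Percent of the measured genes of each list that passed adjusted p 0.05 as higher (right) or lower (left) in 15EN, with the number measured in brackets and dotted lines at the shares of all genes. The 10 nucleotide synthesis genes show calls to the right alone, whereas the other enzymes of the routes show 1 to the right and 3 to the left.

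Markers of the cell line moved beside these results. Of 13 measured sympathetic neuroblastoma markers 8 were lower and 0 higher in 15EN. Over all genes, the share for each marker count here, 9.09% were lower and 12.3% higher. The mean log2 signal of the 13 was 10.04 to 10.19 in 15EN and 10.90 to 11.12 in VC. STMN2 (-1.72 ± 0.22, limma adjusted p = 0.000687), DBH (-1.59 ± 0.23, 0.00112), ISL1 (-1.19 ± 0.26, 0.00816) and ELAVL4 (-1.11 ± 0.27, 0.0149) were among those that fell, as was the transcription factor HAND1 (-1.20 ± 0.31, 0.0193). DBH was dim in 15EN. The calls of ELAVL4 and ISL1 were lost in 4 and 1 of 15 alternatives, and those of STMN2 and DBH in 0. The markers with positive estimates, HAND2 (12.53 ± 0.23 in 15EN, 12.44 ± 0.15 in VC, SD, n = 3) and GATA3 (12.80 ± 0.13 and 12.72 ± 0.27), were not called, and their signals were well above the negative controls in both groups. Fibroblast and matrix markers had 2 of 9 lower and 0 higher (mean signal 8.31 to 9.01 in 15EN, 8.99 to 9.22 in VC), the lower genes being COL1A1 and THY1, whose calls were each lost in 5 of 15 alternatives. COL1A1 was dim in 15EN. Of 8 Schwann cell and glia markers 0 passed in limma and 7 were dim in both groups, and NGFR, the exception, was the single gene with an unadjusted p under 0.05 (adjusted p = 0.125). In bulk RNA, fewer cells of a type and less RNA per cell cannot be told apart. The part of these shifts in the values of the nucleotide synthesis genes was not tested.

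In RefSeq (GRCh38.p14) the called genes lie at chr2:215312059-215368592 (ATIC), chr3:49024325-49029398 (IMPDH2) and chr3:124730452-124749273 (UMPS). Each of the 10 genes was refitted under 15 alternatives. IMPDH2 and UMPS passed in all 15, ATIC in 10, PAICS in 3, ADSL in 2, PPAT, GART, IMPDH1 and CTPS1 in 1 each and CAD in 0.

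**Figure D5:**
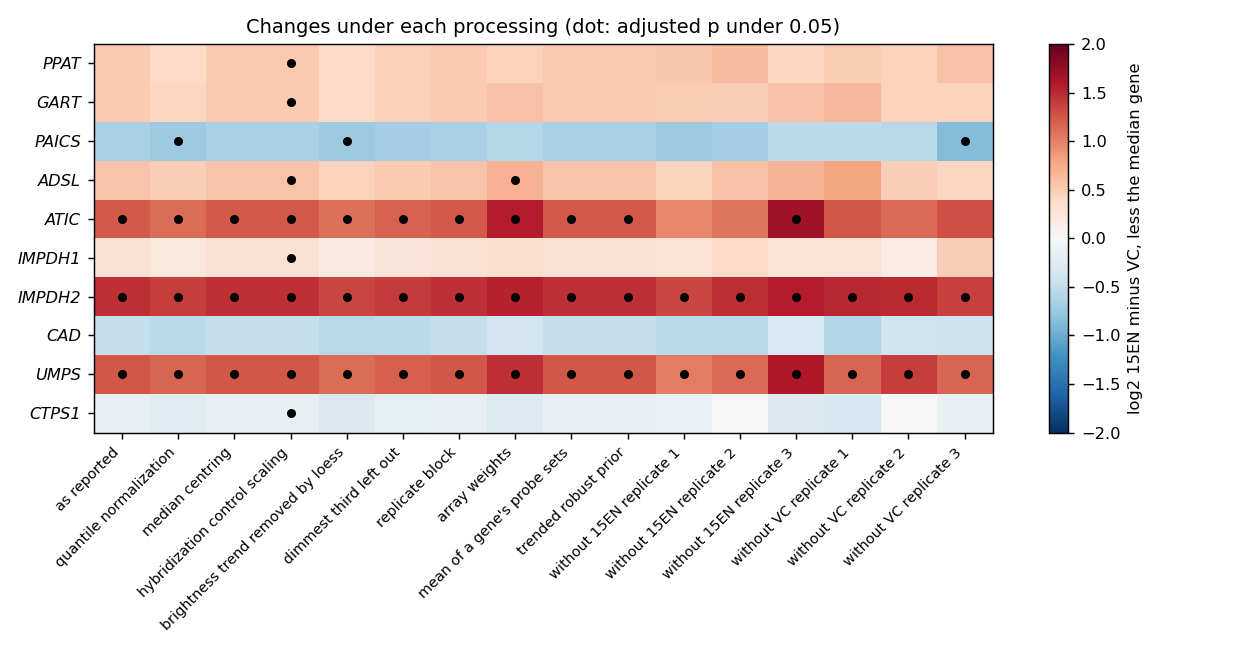
Colour gives the log2 difference (15EN minus VC) less that of the median gene for each of the 10 genes (rows) as reported and under 15 alternatives (columns), and dots mark adjusted p under 0.05. IMPDH2 and UMPS carry a dot in every column, and ATIC loses it without any single array except 15EN replicate 3.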

How the data were processed

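Log2 signals were deposited by the authors, 1 per probe set and array, made with the Transcriptome Analysis Console per the submitters' processing notes. For its version, summarization, normalization and genome build, nothing is given in the sources used here, and the log2 scale was judged from the values (2.20 to 18.82). Of 24351 probe sets 2903 are controls. Of the 21448 others, 17709 have 1 symbol in the platform annotation, 0 several and 3739 none here, and RefSeq held all 17709 Entrez identifiers. The brightest probe set of a gene was kept (22 set aside), leaving 17687 genes, with no filter on dim genes. Dim means a group mean under the mean 90th percentile of the negative controls in that group's arrays, true of 46.9% of genes in both groups.

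The comparison of 15EN with VC used limma 3.58.1 under R 4.3.3 (lmFit, eBayes, group alone, two-sided, Benjamini-Hochberg over all genes). Errors are standard errors of that fit unless marked SD. The number of arrays limits the precision. The fit was tested on simulated data in which 200 of 17687 genes were changed, fewer than the 3787 that passed here. It recovered 0.4% of log2 changes of 0.5, 12.8% of 1, 68% of 1.5 and 92% of 2. With fewer changed genes the adjusted threshold is stricter, so these rates may understate recovery in the real data. They are not a measure of it. A gene that did not pass may still have changed by a moderate amount, as the interval given for CTPS1 shows.

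Named genes were the 10, the other de novo enzymes, up to 4 called genes of smallest p per further list, and the 3 genes most like the called gene of smallest p in each direction. TYMS, HPRT1, MTHFD2, SHMT2, MYC, MYCN, HAND1, HAND2, GATA3 and the 4 pairs were added after their values were seen. The genes and lists were chosen with earlier results of these data known.

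Deviations from the group means were correlated between arrays of the same number ( 0.229, 0.162 and 0.133), and the labels tie each number to a passage, so the replicate number entered 1 alternative fit as a block. Sequences are from RefSeq (GRCh38.p14).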

Additional observations from a re-analysis of the deposited data

How the results depend on the processing

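IMPDH2 and UMPS kept their direction and their call in all 15 alternatives run. With the replicate number as a block, 3 of the 10 genes were higher and 0 lower (IMPDH2 adjusted p = 0.00119, UMPS 0.00527, ATIC 0.0132), 11 related genes were higher and 14 lower, and 2415 genes were higher and 1788 lower in all. Of the calls named, the block ended those of UCK1 (0.65, adjusted p = 0.0533) and NT5C3A (-0.64, 0.0627).

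Scaling to the hybridization controls gave 8 of the 10 genes higher, 53 related genes higher and 2 lower, and 12150 genes higher and 437 lower in all, since a constant of 0.87 was added to each difference. It turned the sign of PAICS (0.23), CAD (0.41), CTPS1 (0.73), PRPSAP1 (0.050), PRPSAP2 (0.70), DCK (0.017), NT5C3A (0.23), ALDH1L2 (0.14) and THY1 (0.077). GMPS, not called, went to -0.011 after quantile normalization and -0.031 after removal of a brightness trend. In both of these settings 1 of the 10 genes, PAICS, was lower.

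Leaving out 1 array gave 2 to 3 of the 10 genes higher and 0 to 1 lower, 8 to 14 related genes higher and 6 to 20 lower, and 1301 to 3227 genes higher and 970 to 2240 lower in all. The differences then ran from -0.34 to 0.037 for CTPS1, -0.53 to 0.19 for PRPSAP2 and -0.015 to 0.16 for ADSS1. The pair values kept their sign in all 15 alternatives (PPAT minus PAICS 0.93 to 1.46, IMPDH2 minus IMPDH1 0.87 to 1.35). Alternatives that add a constant to an array, or alter only the error estimate, cannot change these values. The pairs were also chosen after their values were seen, so the kept sign adds no evidence. Where a call was lost, the cause was not tested. The 3 arrays a group limit the precision of each value.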
